A study of Homo sapiens with 6 samples.

Results

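To follow a family of contact-dependent guidance receptors through repeated DNA damage, transcripts of 10 Eph receptors and ephrins were examined in 22Rv1 cells, a line of human prostate carcinoma epithelial cells. The 10 genes were taken by symbol from a table of 29804 symbols. They comprise 8 receptors (EPHA1, EPHA2, EPHA4, EPHA7, EPHB2, EPHB3, EPHB4 and EPHB6) and 2 ligands (EFNA1 and EFNB2), out of 22 genes in the family. The design had 3 groups of 2 libraries. The untreated cells taken at week 0 are called WT. Age matched (AM) cells were kept in culture for 6 weeks without phleomycin. 6WP cells were exposed for the same 6 weeks to phleomycin at 1 µg/ml, once a day on week days, and phleomycin is a radiomimetic that breaks DNA. All 6 libraries came from this 1 line with the same genotype label, so "WT" here names the week 0 cells. The 10 genes were chosen by their expression in these same libraries, which was known when they were listed, and all 3 comparisons are counted as used in that choice because no single one was named. Their differences between groups are therefore given as a description, without p-values.

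Eph receptors form the biggest family of receptor tyrosine kinases, and their ligands, the ephrins, are themselves bound to the cell surface, so that a signal passes only between touching cells. A-type ephrins are held by a lipid anchor and mostly bind EphA receptors, while B-type ephrins span the membrane and mostly bind EphB receptors. Signals run forward into the receptor-bearing cell and in reverse into the ephrin-bearing cell, and they commonly drive repulsion, cell sorting and the positioning of epithelial cells. In epithelial tumours, including those of the prostate, EPHA2, EPHB3, EPHB4 and their ligands are studied for their part in adhesion and migration.

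EPHB3, EPHA4 and EFNB2 were the listed genes that differed most between the groups. EPHB3 lies on chr3 from 184561785 to 184582408 (GRCh38, plus strand), EPHA4 on chr2 from 221418027 to 221574202 (minus strand) and EFNB2 on chr13 from 106489745 to 106535662 (minus strand). Their promoters are shown because the values below turn on these genes, and each lies upstream of the start of a RefSeq transcript. For EPHA4 that start is inside the GENCODE interval given above, which begins with a longer transcript. The sequences are from RefSeq (GRCh38.p14), read 5′ to 3′ on the strand of the gene, and capitals mark the GC box, GGGCGG or its complement CCGCCC, a motif bound by SP-family factors. For EPHB3 and EFNB2 the 250 bases before the start are given, and for EPHA4 the 147 bases of that window that lie outside annotated exons.
EPHB3, chr3:184561535-184561784: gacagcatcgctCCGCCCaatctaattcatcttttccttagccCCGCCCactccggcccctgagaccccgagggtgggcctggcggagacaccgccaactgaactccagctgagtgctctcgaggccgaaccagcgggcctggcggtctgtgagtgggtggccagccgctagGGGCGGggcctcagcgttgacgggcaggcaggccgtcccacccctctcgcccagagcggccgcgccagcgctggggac
EPHA4, chr2:221572359-221572505: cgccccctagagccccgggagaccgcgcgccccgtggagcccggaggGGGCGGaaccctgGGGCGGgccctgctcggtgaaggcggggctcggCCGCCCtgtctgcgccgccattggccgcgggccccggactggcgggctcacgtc
EFNB2, chr13:106535663-106535912: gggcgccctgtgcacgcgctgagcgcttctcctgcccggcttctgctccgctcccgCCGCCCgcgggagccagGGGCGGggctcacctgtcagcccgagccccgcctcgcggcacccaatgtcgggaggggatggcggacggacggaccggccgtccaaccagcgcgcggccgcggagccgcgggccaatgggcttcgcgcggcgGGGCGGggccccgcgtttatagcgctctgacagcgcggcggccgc

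GC boxes were found 3 times in each of these stretches, and GGGCGG on either strand was present in 42.6% of the 250 base windows of 35116 RefSeq promoters. The windows were rich in G and C, at 70.0% for EPHB3, 78.0% for EPHA4 and 78.4% for EFNB2, against a median of 58.0% over all windows. The letters CTTTGA (TCF/LEF core), GGAATG (TEAD) and TGANTCA (AP-1) were searched on both strands without overlap between the motifs. They were not in the stretches shown for these 3 genes. For EPHA4 the search left out the 103 exon bases of its 250 base window. The same letters were present in 11.2%, 11.9% and 6.57% of the whole 250 base windows of all promoters, respectively. Among the 20 family genes with a promoter entry, EPHA2 had the letters of both the TCF/LEF core and the TEAD motif.

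EPHB3, a receptor for B-type ephrins known for its role in positioning epithelial cells along intestinal crypts, was the listed gene with the highest CPM in every library. CPM here are counts scaled to the library total after TMM normalization. Its level was 157 and 186 CPM in WT, 466 and 518 CPM in AM, and 338 and 415 CPM in 6WP. Both WT libraries lay far below the other 4, and the 6WP libraries lay between WT and AM without overlapping either. Relative to WT, EPHB3 was 2.86-fold higher in AM cells (log2 fold change 1.52, SE 0.14) and 2.19-fold higher in 6WP cells (1.13, SE 0.14). Both lay past the mark used for all genes, a Benjamini-Hochberg adjusted p under 0.05 in the edgeR quasi-likelihood fit, and a gene past it is said to be called. For the 10 listed genes, whose values were known when they were chosen, a call only describes where a gene fell in that fit and is no test. Between 6WP and AM cells the log2 fold change was -0.39 (SE 0.14), which was not called, though it was with a replicate block. Without 6WP replicate 2 this log2 fold change was -0.57. The call in AM cells held under all 12 alternative settings, with log2 fold changes from 1.41 to 1.66. The call in 6WP against WT was not kept without a WT library, and that loss was not particular to EPHB3. Over the left-out libraries the log2 fold changes in 6WP against WT were 0.95 to 1.26. Leaving out 1 library also changed the share of all genes called, so a call gained or lost there is no trait of a single gene.

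EPHA4, a receptor with an unusually broad choice of both A-type and B-type ligands, went the other way and showed the widest range of the listed genes, 2.51 between its highest and lowest group mean on the log2 scale. WT libraries held 98 and 93 counts, AM libraries 16 and 24, and 6WP libraries 23 and 42. In CPM these are 4.38 and 4.27 in WT, 0.69 and 0.71 in AM, and 0.83 and 1.48 in 6WP. Every library kept for 6 weeks was below both WT libraries, and the 6WP libraries were the higher of the 2 cultured groups. EPHA4 was 83.7% lower in AM than in WT (log2 fold change -2.62, SE 0.33) and 73.1% lower in 6WP than in WT (-1.90, SE 0.31), and both were called. The difference between 6WP and AM was 0.72 (SE 0.36) and was not called. Without 6WP replicate 1 this difference was 1.07. The call in 6WP against WT was lost when only the 2 groups were fitted and when any WT or AM library was left out. Its log2 fold changes over the left-out libraries were -2.40 to -1.56. The call in AM against WT was lost when any WT or AM library was left out (-2.65 to -2.60).

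Of the 12037 tested genes with a mean of at least 1 log2 CPM, the 3 whose pattern over the 6 libraries was most like that of EPHA4 were TNFRSF19, ELF5 and BTN3A2. Likeness was the root mean square difference of centred log2 CPM, which was 0.21 for TNFRSF19, 0.29 for ELF5 and 0.34 for BTN3A2. TNFRSF19, a member of the TNF receptor superfamily, averaged 12.2 CPM in WT, 1.82 CPM in AM and 2.69 CPM in 6WP cells. The means of ELF5, an epithelial ETS-family transcription factor, were 21.3, 3.62 and 6.43 CPM in the same order.

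**Figure D1:**
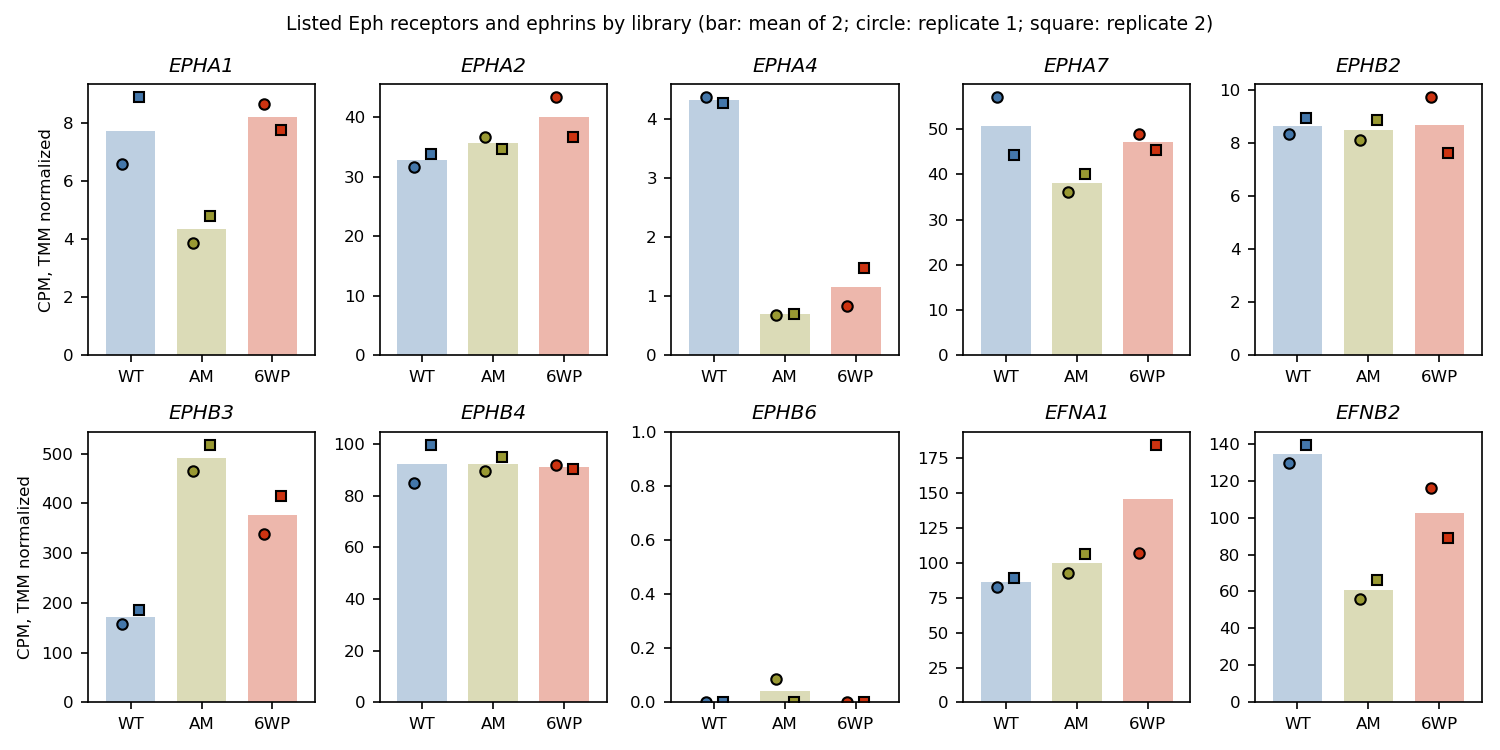
CPM (TMM normalized, linear axis from 0, own scale per gene) of the 10 listed genes in the 6 libraries, with bars for the mean of 2 libraries, circles for replicate 1 and squares for replicate 2. EPHB3 is low in WT, EPHA4 is high in WT, EFNB2 and EPHA1 are lowest in AM, and EPHB2 and EPHB4 are level.

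EFNB2, which encodes the transmembrane ligand ephrin-B2 and signals in both directions with EphB receptors, was lowest in AM cells. Its level was 130 and 139 CPM in WT, 55.8 and 66.0 CPM in AM, and 116 and 89.1 CPM in 6WP. The 3 groups did not overlap, with 6WP between the other two. EFNB2 was 54.7% lower in AM than in WT (log2 fold change -1.14, SE 0.15) and 1.68-fold higher in 6WP than in AM (0.75, SE 0.15), and both were called. Against WT, 6WP cells were at -0.39 (SE 0.15), which was not called, and at -0.61 without 6WP replicate 1. The call in AM against WT was lost without any one WT or AM library (-1.28 to -1.04 over the left-out libraries), and the call in 6WP against AM was lost without AM replicate 1 or AM replicate 2 (0.54 to 0.89).

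EPHA1, the founding receptor of the family, followed a like course at a much lower level. Its values were 6.56 and 8.87 CPM in WT, 3.87 and 4.80 CPM in AM, and 8.64 and 7.75 CPM in 6WP. The AM libraries were the lowest 2 of the 6, while WT and 6WP overlapped. EPHA1 was 43.5% lower in AM than in WT (log2 fold change -0.82, SE 0.22) and 1.88-fold higher in 6WP than in AM (0.91, SE 0.22), and both were called. These calls were lost without any one of the WT or AM libraries (-1.02 to -0.57 in AM against WT, 0.77 to 1.08 in 6WP against AM). The call in 6WP against AM was also lost when only the 2 groups were fitted. In 6WP against WT the log2 fold change was 0.09 (SE 0.21). Exons of EPHA1 (chr7:143390289-143408856, minus strand) overlap those of ZYX on the opposite strand. The library kit keeps strand, but the strand setting of the counting was not given in the sources used here, and without it reads of the overlapping exons cannot be told apart. The same holds for EPHB4, whose exons overlap SLC12A9, for EPHB2 with MIR4253, and for EPHA4, EPHA7 and EFNB2, which overlap unnamed non-coding genes.

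EFNA1, which encodes ephrin-A1, the ligand best known for activating EPHA2, was highest in 6WP cells, though its 2 libraries disagreed. It stood at 82.9 and 89.2 CPM in WT, 92.8 and 106 CPM in AM, and 107 and 185 CPM in 6WP. Both 6WP libraries were above all 4 others, the first of them narrowly. The log2 fold change was 0.76 (SE 0.23) in 6WP against WT and 0.55 (SE 0.23) against AM, and neither was called. In 6WP against WT, EFNA1 was called by the Wald test of DESeq2 and, by edgeR, without the expression filter. Of all tested genes, 8.48% and 4.37% were called in these settings. The left-out libraries decide its size, which was 0.29 without 6WP replicate 2 and 1.09 without 6WP replicate 1. In 6WP against AM it was 0.89 without 6WP replicate 1.

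EPHA2, the EphA receptor most studied in carcinomas, was 31.7 and 33.9 CPM in WT, 36.7 and 34.6 CPM in AM, and 43.3 and 36.6 CPM in 6WP. All 4 libraries of cultured cells were above WT, but by little: the log2 fold change was 0.29 (SE 0.13) in 6WP against WT and 0.12 (SE 0.13) in AM against WT. EPHA7, a receptor of A-type ephrins with known truncated forms, was 57.0 and 44.4 CPM in WT, 36.1 and 40.1 CPM in AM, and 49.0 and 45.4 CPM in 6WP. AM was the low group again, at -0.41 (SE 0.15) against WT. None of these differences was called. EPHA7 was called in AM against WT with upper quartile scaling and when only the 2 groups were fitted. Of all tested genes, 17.2% and 46.5% were called in these settings. Over the left-out libraries its log2 fold change in AM against WT was -0.56 to -0.21. Without 6WP replicate 2, the log2 fold change of EPHA2 in 6WP against WT was 0.38.

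EPHB4, the preferred receptor of ephrin-B2, was nearly level, from 85.1 to 99.8 CPM over the 6 libraries, with 3 log2 fold changes between -0.02 and -0.00 (SE 0.12). EPHB2, a receptor of B-type ephrins, ranged from 7.61 to 9.73 CPM, and its 3 log2 fold changes were between -0.02 and 0.02 (SE 0.18). EPHB6, a receptor without kinase activity, had 2 counts in AM replicate 1 and 0 in the other 5 libraries, which is under the 3 counts taken as detectable (between 0.0883 and 0.138 CPM, counting error only). It did not pass the expression filter and was not tested.

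Of the 9 listed genes tested, 2 were called in 6WP against WT (EPHB3 higher and EPHA4 lower), where 3.00% of all 14672 tested genes were called, 1.63% higher and 1.37% lower. In 6WP against AM, EFNB2 and EPHA1 were called, both higher, against 21.3% of all genes called, 11.7% higher and 9.68% lower. AM against WT gave 4 calls, EPHB3 higher and EPHA4, EFNB2 and EPHA1 lower, with 17.7% of all genes called, 7.74% higher and 9.93% lower. The median log2 fold change of the 9 genes was 0.00 in 6WP against WT, 0.31 in 6WP against AM and -0.02 in AM against WT. Over all tested genes these medians were 0.01, 0.05 and -0.00. The groups did not overlap for 5, 6 and 7 of the 9 genes in these comparisons, as was so for 50.7%, 62.3% and 73.8% of all genes. Any 2 of the comparisons share a group of libraries, so the calls in them are not independent.

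The other 12 family genes were set beside the 10. EPHA3, a receptor for A-type ephrins, had more CPM than any listed gene in 5 of the 6 libraries, at 492 and 458 CPM in WT, 556 and 515 CPM in AM, and 562 and 739 CPM in 6WP. In AM replicate 2 it stood beside EPHB3 (518 CPM). It was not called in any comparison (adjusted p = 0.122 in 6WP against WT, edgeR). Without 6WP replicate 1 its log2 fold change in 6WP was 0.62 against WT and 0.46 against AM. EFNB3, a B-type ligand known from axon guidance, was 21.1 and 22.9 CPM in WT, 11.5 and 12.2 CPM in AM, and 20.1 and 27.5 CPM in 6WP. It had its low point in AM like EFNB2: it fell in AM against WT (log2 fold change -0.89, SE 0.17, adjusted p = 0.0147) and was higher in 6WP than in AM (1.01, SE 0.17, adjusted p = 0.00894). EFNA5, an A-type ligand that can also bind EPHB2, fell from 25.6 and 27.2 CPM in WT to 16.2 and 15.8 CPM in AM (-0.73, SE 0.13, adjusted p = 0.0110), and stood at 22.1 and 20.4 CPM in 6WP. EPHA8 was higher in 6WP than in AM (1.55, SE 0.38, adjusted p = 0.0262) at no more than 2.11 CPM in any library.

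The AM against WT calls of EFNB3 and EFNA5 were lost without any one WT or AM library. In 6WP against AM, the call of EFNB3 was lost without either AM library (0.73 to 1.21 over the left-out libraries). That of EPHA8 was lost without any one WT or AM library and when only the 2 groups were fitted. Its log2 fold changes over the left-out libraries were 1.18 to 1.94. None of the 11 other family genes tested was called in 6WP against WT by edgeR, where 3.00% of all genes were called. Of the 11, 2 had an unadjusted p under 0.05. The Wald test of DESeq2 called 0 of the 11 and 8.48% of all tested genes. The 7 not called in any comparison besides EPHA3 were EPHA5 (1.51 to 2.85 CPM), EPHA6 (26.6 to 48.5 CPM), EPHA10 (8.86 to 12.8 CPM), EFNA2 (2.11 to 5.33 CPM), EFNA3 (14.4 to 27.3 CPM), EFNA4 (25.3 to 35.5 CPM) and EFNB1 (11.1 to 14.5 CPM). When only the 2 groups were fitted, EPHA6, EFNA2 and EFNA3 were called lower in AM against WT, where 46.5% of all tested genes were called. EPHB1 was at or below 0.362 CPM and was not tested. Exons of EFNA3 and EFNA4 are shared with a readthrough transcript, so their counts are uncertain.

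**Figure D2:**
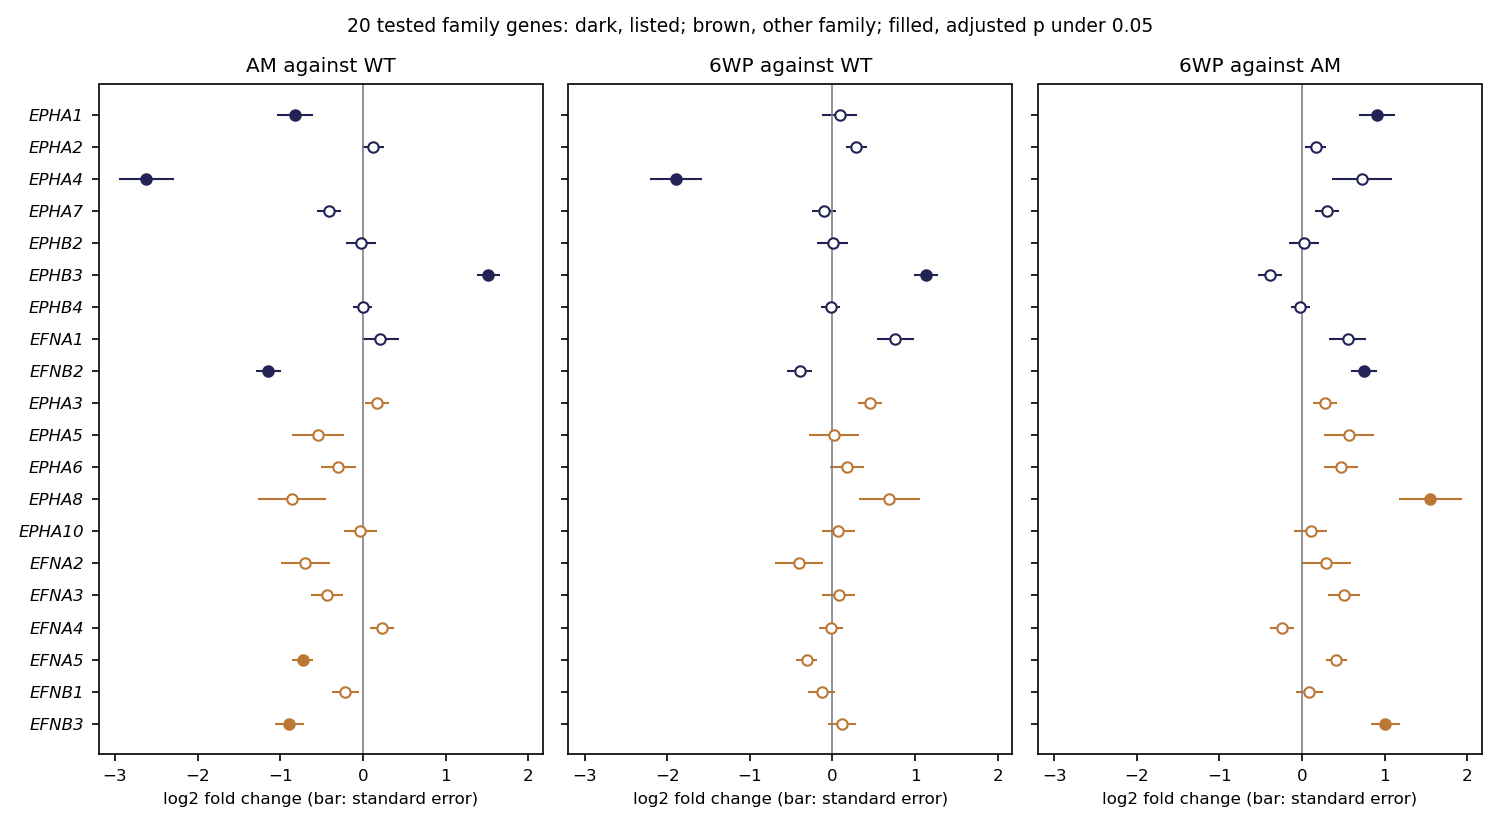
Log2 fold change (x axis) with its standard error (bars) for the 20 tested family genes in the 3 comparisons, dark for the 9 listed genes and brown for the 11 others, filled where the adjusted p was under 0.05. EPHB3 sits at 1.52 and EPHA4 at -2.62 in AM against WT, and of the 20 genes 15 lie below 0 there.

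Over the 20 tested family genes, 15 had a log2 fold change below 0 in AM against WT, with a median of -0.35, and 17 had one above 0 in 6WP against AM, with a median of 0.36. These comparisons share the AM libraries. In 6WP against WT, 12 were above 0 and 8 below, and the median was 0.05. The 20 include the 9 listed genes, chosen by their values in these libraries, so the pooled figures are a description. The 11 others alone had 9 values below 0 in AM against WT (median -0.43) and 10 above 0 in 6WP against AM (median 0.41). In 6WP against WT the 11 had 7 above 0 and 4 below (median 0.07). Most single differences among the 20 were not called. The threshold was passed by 6 of 20 genes in AM against WT, 4 in 6WP against AM and 2 in 6WP against WT. Of all tested genes, 17.7%, 21.3% and 3.00% were called in the same order. The median log2 fold changes of all tested genes were -0.00, 0.05 and 0.01.

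To compare the genes with each other, CPM were divided by the kilobases of merged exon of each gene. On this scale EFNA1 (39.7 CPM per kb) and EPHB3 (37.9 CPM per kb) led the listed genes in WT and overlapped between libraries. They were followed by EFNB2 (26.9), EPHB4 (14.4), EPHA2 (7.92), EPHA7 (3.08), EPHA1 (1.64), EPHB2 (0.691) and EPHA4 (0.572), each apart from the next. In AM cells EPHB3 led with 109 CPM per kb, well apart from EFNA1 at 46.0, and EPHB4 (14.3) stood above EFNB2 (12.2). In 6WP cells EPHB3 (83.0) and EFNA1 (67.4) overlapped again and EFNB2 (20.5) was above EPHB4 (14.2). The genes from EPHA2 to EPHA4 kept their places in all 3 groups. With the length of the canonical transcript in place of merged exons, EFNA1 (55.4 CPM per kb) was above EPHB3 (40.6) in WT without overlap, EPHA7 overlapped EPHA2 there, and in 6WP EFNB2 (20.5) and EPHB4 (20.9) overlapped.

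EPHB3 therefore held a changing share of the receptor transcripts. As a percent of the summed level per kb of the 14 receptors, it was 24.8% and 28.5% in WT, 47.3% and 51.3% in AM, and 38.4% and 38.7% in 6WP. The 3 groups were apart. EPHA3 held 50.9% ± 3.65 (SD, n = 2) in WT, 37.0% ± 2.70 in AM and 45.8% ± 2.34 in 6WP. Among the 5 B receptors alone, EPHB3 made up 71.5% ± 0.194 in WT, 87.8% ± 0.352 in AM and 84.7% ± 2.16 in 6WP. The ratio of EPHB3 to EPHB4 was 2.63 and 2.65 in WT, 7.39 and 7.74 in AM, and 5.22 and 6.53 in 6WP, all per kb.

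**Figure D3:**
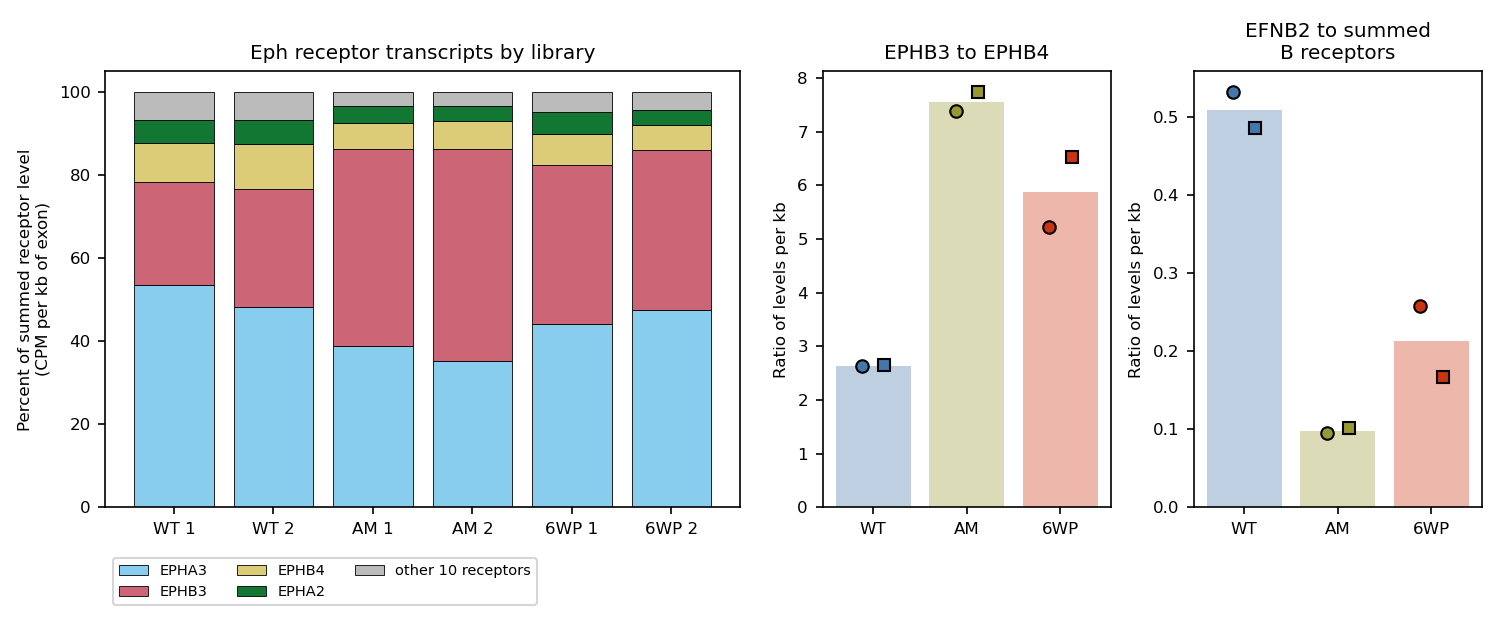
Left, percent of the summed level (CPM per kb of exon) of 14 Eph receptors, per library, held by EPHA3, EPHB3, EPHB4, EPHA2 and the others together. Middle and right, the ratio of EPHB3 to EPHB4 and of EFNB2 to the summed B receptors, per kb, with bars for the mean of 2 libraries. EPHB3 takes 26.6% of receptor level in WT, 49.3% in AM and 38.5% in 6WP on average, and the EFNB2 ratio is lowest in AM.

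Ratios of ligand to receptor restate the levels given above and are no further result. EFNB2 and EPHB3 were chosen by their values, and EPHB3 made up most of the B receptor level. EFNB1 and EFNB3, the other B-type ephrins, are left out of these ratios. Per kb, EFNB2 relative to the summed B receptors was 0.532 and 0.486 in WT, 0.0949 and 0.101 in AM, and 0.258 and 0.168 in 6WP. WT libraries were the highest and AM libraries the lowest, without overlap. Against EPHB4 alone, the ratio of EFNB2 was 1.88 ± 0.116 (SD, n = 2) in WT, 0.847 ± 0.0648 in AM and 1.44 ± 0.249 in 6WP. EFNA1 exceeded EFNB2 1.48-fold in both WT libraries, 3.85-fold and 3.73-fold in AM, and 2.14-fold and 4.79-fold in 6WP, so that the 6WP libraries lay on either side of AM. These are ratios of RNA, and the receptors and ligands at the cell surface were not measured.

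Genes that carry Eph and ephrin signals inside the cell were examined as a list of 52, of which 47 were tested. In 6WP against WT, 1 was called, where 3.00% of all genes were. GRB10, an adaptor that binds activated receptor tyrosine kinases, EphB1 among them, rose from 52.2 and 54.0 CPM in WT to 117 and 121 CPM in 6WP (log2 fold change 1.16, SE 0.11, adjusted p = 0.00493 by edgeR). AM cells were at 48.5 and 43.6 CPM, and 6WP against AM gave 1.37 (SE 0.11, adjusted p = 0.00164), a call that held under all 12 alternatives. The call against WT was not kept without a WT library, and that loss was not particular to GRB10. Over the left-out libraries its log2 fold change against WT was 1.11 to 1.18. The median log2 fold change of the 47 was 0.06 in 6WP against WT, 0.11 in 6WP against AM and -0.05 in AM against WT.

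In AM against WT, 3 of the 47 partners rose and 6 fell, a share near the 17.7% of all genes called there (7.74% higher and 9.93% lower). The falls included CHN1, a Rac GTPase-activating protein that acts below EPHA4 in axon guidance (3.30 and 3.63 CPM in WT, 0.646 and 0.353 CPM in AM, log2 fold change -2.83, SE 0.35, adjusted p = 0.00430). GRIP1, a PDZ scaffold that binds B-type ephrins, fell by 2.08 (SE 0.24, adjusted p = 0.00357). ANKS1B, an adaptor of the SAM and PTB type, fell by 2.05 (adjusted p = 0.00845), and the kinase PAK1 by 0.94 (adjusted p = 0.00370). SDCBP, the PDZ protein syntenin, and MMP14, a membrane protease, fell by 0.61 and 1.11. RHOA, the GTPase through which EphA receptors contract the cytoskeleton, rose by 0.51 from 769 and 752 CPM to 1065 and 1107 CPM (adjusted p = 0.0183), and the polarity protein PARD6A by 0.82. These calls were lost without any one WT or AM library, except that of CHN1, which held without AM replicate 1. PICK1, the third riser, was named after its values were seen (0.51).

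In 6WP against AM, 8 of the 47 partners were higher and 1, RHOA, lower (-0.36, adjusted p = 0.0480, named here after its value was seen), beside 21.3% of all genes called (11.7% higher and 9.68% lower). Besides GRB10 these were ANKS1B (1.82), CHN1 (1.43), MMP14 (1.32), GRIP1 (1.21) and PAK1 (0.67), all of them among the genes that fell in AM against WT, a comparison with the same AM libraries. The kinase FYN (1.38, adjusted p = 0.0275) and VAV3 (0.69, adjusted p = 0.0377) completed the list. Both of these calls, and those of CHN1 and RHOA, were lost when only the 2 groups were fitted and without any one WT or AM library, and the left-out libraries moved FYN from 0.71 to 1.80 and VAV3 from 0.34 to 0.95. The 6WP against AM calls of PAK1, ANKS1B, MMP14 and GRIP1 were lost without AM replicate 1 or AM replicate 2. That of GRIP1 was also lost when only the 2 groups were fitted. FYN was uneven in 6WP, at 17.4 and 7.96 CPM, and both libraries were above the 4.29 to 5.37 CPM of the other 4. How many partners were called changed when 1 library was left out, and so did the share of all tested genes called.

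**Figure D4:**
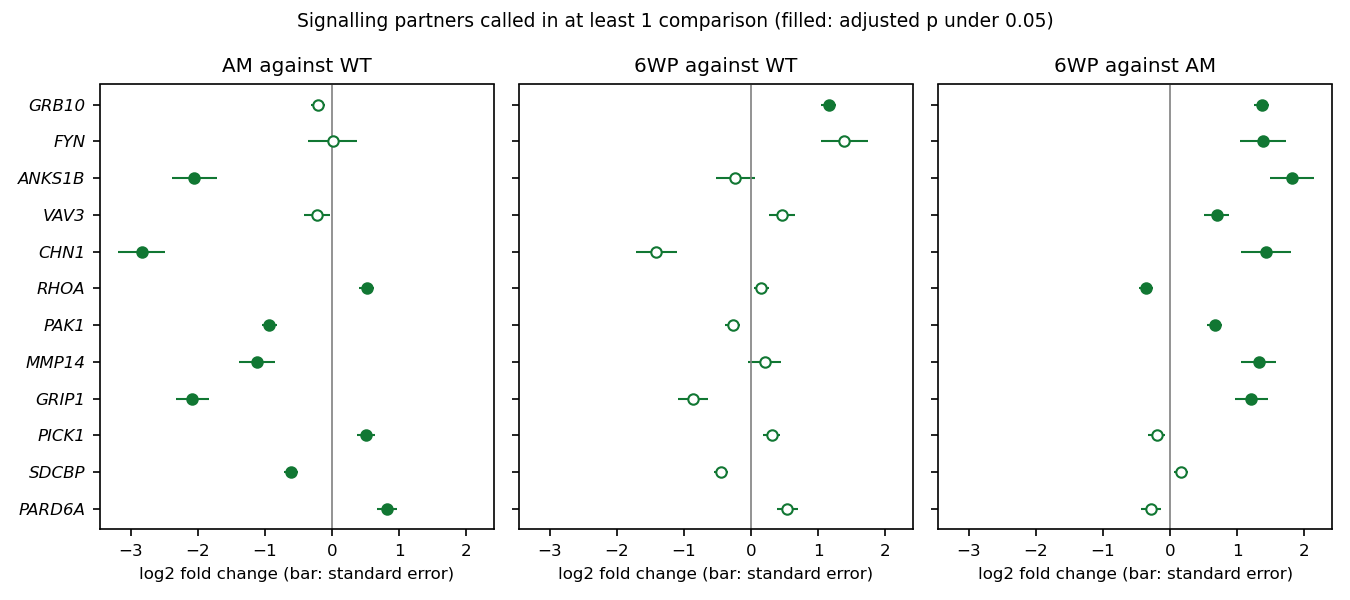
Log2 fold change (x axis) with its standard error (bars) of the 12 signalling partners called in at least 1 comparison, filled where the adjusted p was under 0.05. GRB10 is filled at 1.16 in 6WP against WT and at 1.37 in 6WP against AM, and CHN1 is at -2.83 in AM against WT.

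The cells were checked against markers of the cell types in which these genes are also known. All 10 markers of prostate luminal epithelium were tested, and their sum was 2982 to 3137 CPM in WT, 1934 to 2286 CPM in AM and 2468 to 3455 CPM in 6WP. Of the 10, edgeR called 5 lower and 1 higher in AM against WT, and 1 lower and 3 higher in 6WP against AM. It called 0 in 6WP against WT, where 4 had an unadjusted p under 0.05 and the Wald test of DESeq2 called 1. Unadjusted p-values under 0.05 were common in 6WP against WT: by edgeR, a p of 0.0477 (PICK1) ranked 3211 among 14672 tested genes. The shares of all genes called were 9.93% lower and 7.74% higher in AM against WT, and 9.68% lower and 11.7% higher in 6WP against AM. In 6WP against WT, 3.00% of all genes were called by edgeR and 8.48% by the Wald test. Whether this has a part in the values of EFNB2, EPHA1, EPHA4 and EPHB3 was not tested. EPHB4 and EFNB2 are classical markers of veins and arteries, and the 4 endothelial markers summed to at most 0.138 CPM, with CDH5 at 0 in every library. Basal markers reached at most 0.179 CPM with KRT5 at 0, leukocyte markers at most 0.325 CPM with PTPRC and CD3E at 0, and fibroblast markers 1.68 to 4.16 CPM. In bulk RNA, fewer cells of a kind and less RNA per cell cannot be told apart.

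Library totals were between 21222201 and 35311945 counts. The 6WP libraries differed from each other more than those of the other groups, with a median SD of 0.20 per gene on the log2 scale against 0.09 in both WT and AM. With 2 libraries against 2, an exact permutation test cannot go below p = 0.333, so the calls rest on the model fitted across genes. Labels describe the libraries as biological replicates without saying more of their origin, and p-values measure only the spread between these libraries.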

How the data were processed

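RNA-seq was performed on 6 libraries of 22Rv1 cells (WT, AM and 6WP, 2 each) by the stranded TruSeq protocol. Single end reads had been mapped by the authors to hg38 using STAR 2.5.3a. The submitters' processing notes also name featureCounts 1.5.3, StringTie 1.3.3, edgeR 3.22.3 and R 3.5.0. The deposited table gives raw counts for each gene symbol, without normalization, and the annotation used was not given in the sources used here. No column was left out.

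Totals, TMM factors and CPM were computed here with R 4.3.3 and edgeR 4.0.16. The filterByExpr filter kept 14672 of 29804 symbols. All 6 libraries entered 1 quasi-likelihood fit with group as its only term, and 3 two-sided comparisons were adjusted over all tested genes (Benjamini-Hochberg, threshold 0.05). The SE was obtained from each log2 fold change and its F statistic. The procedure was run on simulated counts with the same spread in every group, so the wider spread of the 6WP libraries was not covered. The members and lists were chosen with earlier results of these data known. The text names all 10 listed genes, every tested family gene, at most 8 called partners of smallest p per comparison, and the 3 genes nearest to the listed gene of widest range. AFDN was matched by its older symbol. Exon lengths, positions and overlaps were from GENCODE v44, promoters from RefSeq (GRCh38.p14, 20 of the 22 family genes matched). Alternatives were DESeq2 1.42.0 size factors and its Wald test, upper quartile scaling, no expression filter, a replicate block, a fit to just the groups being compared, leaving out each library in turn and, added after seeing the data, the length of the canonical transcript.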

Additional observations from a re-analysis of the deposited data

How the results depend on the processing

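Fitting only the 2 groups compared changed the number of listed genes called from 2 to 1 in 6WP against WT, from 2 to 1 in 6WP against AM and from 4 to 5 in AM against WT, of other family genes to 1 in 6WP against AM and 5 in AM against WT, and of partners to 4 in 6WP against AM and 25 in AM against WT. That fit called 0.66% of all tested genes in 6WP against WT, 9.07% in 6WP against AM and 46.5% in AM against WT. Without the expression filter 3 partners, and by the Wald test of DESeq2 4 partners, were called in 6WP against WT. The shares of all tested genes called there were 4.37% without the filter and 8.48% by the Wald test. With 1 library left out, the lone library of its group being assumed to vary like the others, the counts were 0 to 4 listed genes, 0 to 3 other family genes and 0 to 16 partners in 6WP against WT, 0 to 4, 0 to 7 and 1 to 24 in 6WP against AM, and 1 to 6, 0 to 5 and 0 to 26 in AM against WT. In 6WP against WT, calls among all tested genes ranged from 0% without a WT library to 26.0% without 6WP replicate 2. The share of all tested genes called also moved widely with the library left out in 6WP against AM and in AM against WT. The ranges of counts there are therefore no trait of the listed genes, the other family genes or the partners. The causes were not tested.

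With the replicate block, the listed genes called were 2, 3 and 4, the other family genes 0, 3 and 2 and the partners 1, 8 and 10, for 6WP against WT, then against AM, then AM against WT. Of all tested genes, 2.68%, 20.9% and 16.9% were called with the block in the same order. The block added EPHB3 and EFNA3 and lost RHOA in 6WP against AM. Same-numbered libraries share only a number: their deviations correlated at 0.04 (WT and AM), 0.09 (WT and 6WP) and -0.02 (AM and 6WP). With upper quartile scaling, 2276 genes were higher and 1062 lower in 6WP against AM (1711 and 1420 with TMM), and 689 and 1832 in AM against WT (1136 and 1457). It shifted the median of all genes by 0.09 and -0.09. EPHB3 made up 64.7%, 84.0% and 80.2% of B receptor level in WT, AM and 6WP with the length of the canonical transcript.

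Values that changed sign were uncalled in the fit reported. FYN in AM against WT was at -0.0854 with upper quartile scaling. Over the left-out libraries, the log2 fold changes in 6WP against WT were -0.27 to 0.31 for EPHA5, -0.22 to 0.45 for EPHA6, -0.25 to 0.30 for EPHA10, -0.19 to 0.26 for EFNA3, -0.14 to 0.056 for EFNA4, -0.15 to 0.30 for EFNB3, -0.11 to 0.32 for EPHA1, -0.28 to 0.088 for EPHA7, -0.20 to 0.14 for EPHB2, -0.13 to 0.096 for EPHB4 and -0.68 to 0.079 for ANKS1B. They were -0.22 to 0.34 for EPHA10, -0.17 to 0.16 for EPHB2, -0.063 to 0.027 for EPHB4 and -0.037 to 0.22 for EFNB1 in 6WP against AM, and -0.079 to 0.016 for EPHA10, -0.10 to 0.050 for EPHB2, -0.11 to 0.14 for EPHB4 and -0.14 to 0.20 for FYN in AM against WT.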
